A study of Mus musculus with 24 samples.

Results

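Retinaldehyde dehydrogenases and retinoid handling genes were followed in the mouse lens under glutathione deficiency. The members were 7 genes, taken by symbol from the 24415 genes of the deposited count table: the aldehyde dehydrogenases Aldh1a1, Aldh1a2, Aldh1a3 and Aldh1a7, the retinol dehydrogenase Rdh10, and the retinoic acid binding proteins Crabp1 and Crabp2. They were chosen by symbol with the fitted changes between these groups known from an earlier analysis of the same libraries, so the values within each comparison describe the genes and are no independent evidence of their direction. RNA sequencing had been done on 24 libraries of C57BL/6 mice, 4 for each of 6 groups: untreated wild type (WT), untreated LEGSKO, and LEGSKO given buthionine sulfoximine (LEGSKO+BSO), each as lens epithelia and as cortical fiber cells. The series text describes LEGSKO lenses as mildly and BSO-treated LEGSKO lenses as severely deficient in glutathione. As background, Gclc, the gene for the catalytic subunit of glutamate-cysteine ligase, is deleted in the lens of LEGSKO mice, and BSO blocks the same enzyme. No group held wild-type mice given BSO, so the effect of the drug without the knockout was not measured. The labels give no age, no promoter of the deleting enzyme and no count of animals per library, and p-values therefore measure the spread between libraries, which may be partly technical.

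Retinoic acid is made from vitamin A in a pair of oxidations. Retinol dehydrogenases such as Rdh10 turn retinol into retinaldehyde, and the retinaldehyde dehydrogenases Aldh1a1, Aldh1a2 and Aldh1a3 turn retinaldehyde into retinoic acid. Crabp1 and Crabp2 bind retinoic acid in the cytosol, where Crabp2 hands it to nuclear receptors. In the lens, Aldh1a1 is also known as an abundant cytosolic enzyme that oxidizes the reactive aldehydes left by lipid peroxidation. Aldh1a7 is a rodent copy that lies beside Aldh1a1.

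In fibers, the Aldh1a members moved in opposite directions. Aldh1a1 rose 2.03-fold in LEGSKO and 2.33-fold in LEGSKO+BSO fibers against WT, and Aldh1a7 rose 1.94-fold and 1.90-fold. Aldh1a3 fell to a level 3.23-fold below WT in LEGSKO and 3.70-fold below WT in LEGSKO+BSO fibers. In epithelia edgeR, the main test, called no member, while DESeq2 called Aldh1a1 and Aldh1a7 higher in LEGSKO than in WT. Neither tool called a member between LEGSKO+BSO and LEGSKO in either tissue. Rdh10 was not called in any condition comparison, and Aldh1a2 and Crabp1 were at the limit of detection.

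The 24 libraries held 19.3 to 46.6 M (mega) counts each, and LEGSKO+BSO fibers were the deepest group with 39.0 to 46.6 M. The targeted gene Gclc overlapped between WT and LEGSKO in both tissues. It measured 53.1 ± 8.58 counts per M of scaled library size (CPM, SD, n = 4) in WT and 39.8 ± 7.17 in LEGSKO epithelia, and 130 ± 46.1 and 112 ± 9.37 in the fibers. It was called in neither (edgeR quasi-likelihood test, adjusted p = 0.224 and 0.572), so its level over the whole gene does not separate the labels. The fiber markers summed to 224400 to 470600 CPM in fiber libraries and to 15280 to 31980 CPM in epithelial libraries, matching the labelled tissues. One library stood apart: WT fiber replicate 1 had 50.1% of its counts in crystallin genes, while the other 3 WT fiber libraries had 27.6% to 29.6%. It was also the highest WT fiber library in CPM for Aldh1a1, Aldh1a7, Aldh1a3 and Crabp2. For Aldh1a1 and Aldh1a7 this depends on the scaling of library size. Replicate 1 held 2711 and 412 of their counts among 27.7 M, and replicate 2 held 3813 and 493 among 30.0 M. The members' differences from WT fibers are therefore also given without replicate 1.

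Of the 7 members, 5 passed the filter on low counts in both tissues. In LEGSKO against WT fibers 3 of these 5 were called at an adjusted p below 0.05, 2 higher and 1 lower. Of all genes tested 1.64% were called there, 1.09% higher and 0.543% lower. In LEGSKO+BSO against WT fibers it was again 3 of 5, 2 higher and 1 lower, beside 5.52% of all genes, 3.05% higher and 2.47% lower. Both counts were also 3 without WT fiber replicate 1, a fit in which the number of all genes called went from 220 to 591 for LEGSKO and from 742 to 1075 for LEGSKO+BSO. Without LEGSKO fiber replicate 3 the first comparison had 1 member called, Aldh1a1, and 61 of all genes. These comparisons share their WT libraries, so they are given side by side and not as repeats of each other. Because the members were chosen with results known, their share is not set against the share of all genes. The 2 higher members were the close copies Aldh1a1 and Aldh1a7, whose counts may share reads.

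**Figure D1:**
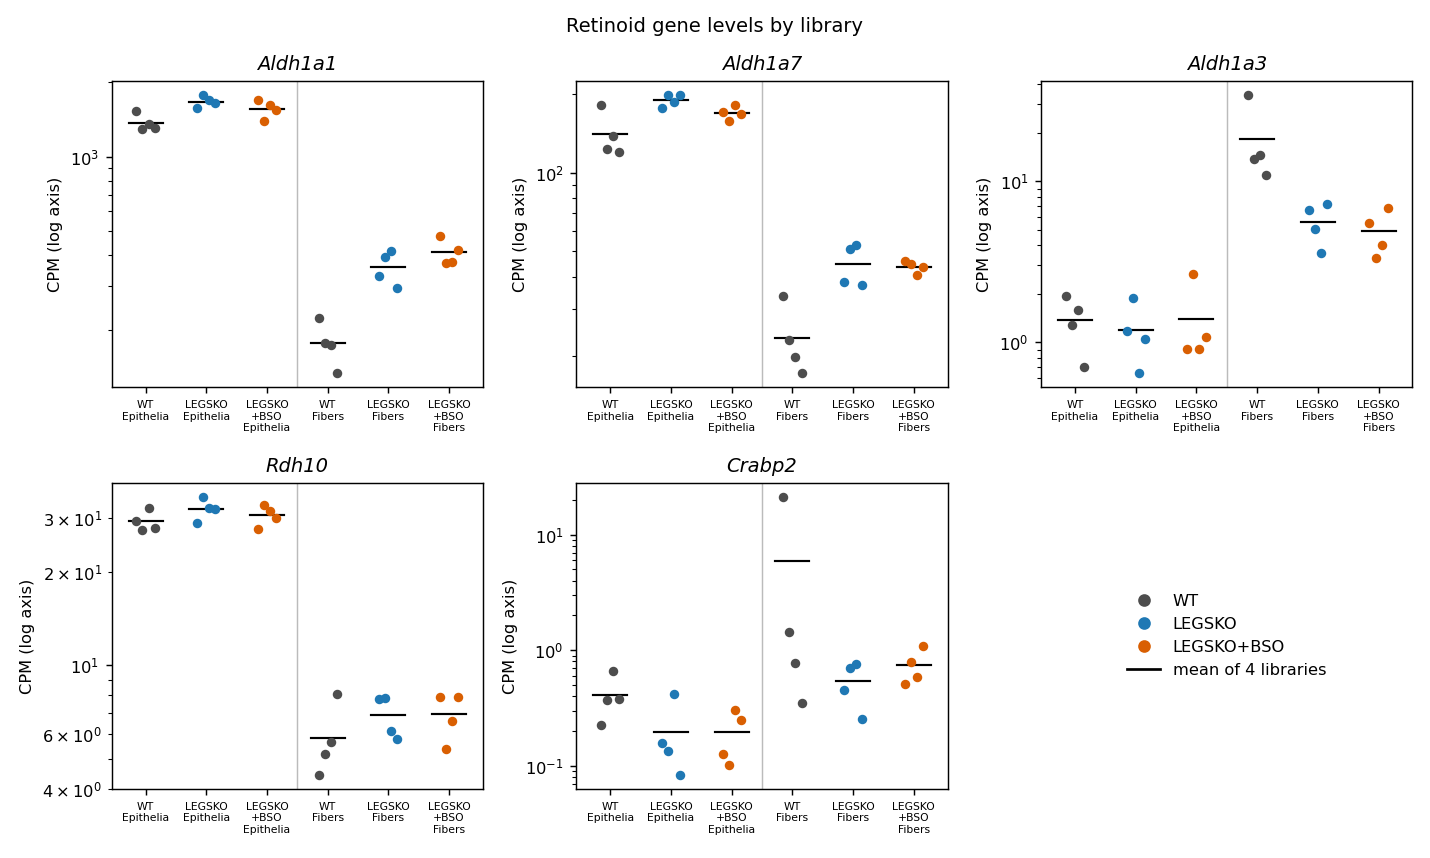
CPM (log axis) of the 5 members that passed the filter, by group, with 1 point per library and a line at the mean of 4 libraries. In fibers all LEGSKO and LEGSKO+BSO points lie above all WT points for Aldh1a1 and Aldh1a7 and below them for Aldh1a3, and for Crabp2 1 WT fiber library at 21.4 CPM sets the group mean.

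Aldh1a1 (Entrez 11668, GRCm38 chr19:20492583-20643463) and Aldh1a7 (Entrez 26358, chr19:20692953-20727556) are neighbours on chromosome 19. Their coding sequences, 1503 bases each, were aligned without gaps and were 91.6% identical, whereas the other pairs within the Aldh1a family were 67.4% to 68.9% identical. Their promoters also carry a common stretch. The 250 bases before each start, from RefSeq on GRCm38.p6, are shown because these are the members that rose together in fibers. The Aldh1a1 stretch is chr19:20601718-20601967 on the plus strand, before the inner of its starts in the table, and the Aldh1a7 stretch is chr19:20727557-20727806 on the minus strand. Capitals mark CCAAT boxes and the octamer ATGCAAAT on the printed strand.
Aldh1a1: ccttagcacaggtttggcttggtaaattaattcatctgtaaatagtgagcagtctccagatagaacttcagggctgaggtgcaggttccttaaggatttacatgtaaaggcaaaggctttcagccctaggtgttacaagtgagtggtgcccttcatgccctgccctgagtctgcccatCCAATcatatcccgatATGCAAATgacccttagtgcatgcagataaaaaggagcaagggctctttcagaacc
Aldh1a7: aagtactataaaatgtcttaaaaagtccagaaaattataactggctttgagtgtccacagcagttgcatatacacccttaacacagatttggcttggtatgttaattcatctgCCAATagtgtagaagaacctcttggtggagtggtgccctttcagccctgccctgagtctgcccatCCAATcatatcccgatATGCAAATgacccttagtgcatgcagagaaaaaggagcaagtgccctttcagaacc

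Over windows of 300 bases that reach 50 bases past the start, the Aldh1a1 and Aldh1a7 promoters were 77.5% identical, with 221 identical and 64 different positions, 30 gap bases and a longest identical run of 65 bases. In both, a CCAAT box began 72 bases and the octamer 56 bases before the start. Each had a further CCAAT box. That of Aldh1a7 began 137 bases before its start, and that of Aldh1a1 began 2 bases before its start, so that it runs past the printed stretch and is not in capitals there. The window before the outer Aldh1a1 start was 55.6% identical to that of Aldh1a7 and held none of the motifs searched. Neither gene had a match, on either strand, to AGGTCA, the half-site of retinoic acid receptors, or to TGACNNNGC, the core of the antioxidant response element. Aldh1a7 had 1 match to TATAAA, 244 bases before its start. Among 32851 mouse promoter windows of the same length, CCAAT was found in 37.4%, AGGTCA in 16.3%, TATAAA in 13.6%, TGACNNNGC in 12.4% and ATGCAAAT in 1.7%. The octamer was added to the search after both sequences had been seen, and it does not overlap the other motifs at these places. Such a match describes letters in a window and not a binding site. Of the other members, Aldh1a2 had an octamer 84 bases, TGACNNNGC 112 bases and CCAAT 36 bases before its start, and Crabp1 had no match to any of the 5 motifs.

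Aldh1a1 was the most abundant member in every group. Per kilobase of transcript, its level in WT epithelia was 580 ± 46.4 CPM (SD, n = 4), against 68.2 ± 13.8 for Aldh1a7, 8.14 ± 0.611 for Rdh10, 0.440 ± 0.196 for Crabp2 and 0.400 ± 0.154 for Aldh1a3. In WT fibers the same scale gave 74.7 ± 15.4 for Aldh1a1, 11.3 ± 3.53 for Aldh1a7, 5.35 ± 3.12 for Aldh1a3 and 1.63 ± 0.439 for Rdh10. Crabp2 averaged 6.42 ± 11.02 per kilobase there, a mean that rests on WT fiber replicate 1. The order of the members therefore differed between tissues, with Aldh1a3 above Rdh10 in all 4 WT fiber libraries and below it in all 4 WT epithelial libraries.

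Fibers and epithelia of WT lenses differed for each of the 5 members tested, in a comparison where 76.4% of all genes tested were called. Aldh1a1 was lower in fibers by 7.78-fold (log2 -2.96 ± 0.13 SE, adjusted p = 4.443e-16), Aldh1a7 by 6.10-fold (log2 -2.61 ± 0.16 SE, adjusted p = 1.511e-13) and Rdh10 by 4.94-fold (log2 -2.30 ± 0.14 SE, adjusted p = 1.533e-13). Aldh1a3 was 13.2-fold higher in fibers (log2 3.73 ± 0.40 SE, adjusted p = 7.705e-09). Crabp2 was also higher (log2 3.81 ± 0.85 SE, adjusted p = 0.000266), but its groups overlapped, and without WT fiber replicate 1 the difference was log2 1.04 with an adjusted p of 0.0803. The other 4 kept their calls without that library, at log2 -3.11 for Aldh1a1, -2.85 for Aldh1a7, -2.24 for Rdh10 and 3.23 for Aldh1a3. In such bulk samples, fewer cells of a type and less RNA per cell cannot be told apart. Libraries of both tissues were treated as independent, although the labels do not say whether they share animals.

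In WT fibers, Aldh1a1 measured 222, 177, 173 and 133 CPM. In LEGSKO fibers it measured 329, 393, 416 and 294 CPM, and in LEGSKO+BSO fibers 476, 373, 374 and 419 CPM. Every glutathione-deficient fiber library was above every WT fiber library, and the LEGSKO and LEGSKO+BSO ranges overlapped. The difference was log2 1.02 ± 0.14 SE for LEGSKO (adjusted p = 0.00192) and log2 1.22 ± 0.14 SE for LEGSKO+BSO (adjusted p = 0.00028). Between LEGSKO+BSO and LEGSKO fibers it was log2 0.20 ± 0.14 SE (adjusted p = 0.647). Groups that did not overlap with the higher level in the deficient lens were found for 4.51% of genes in the first of these comparisons and for 7.62% in the second. Both calls held when any 1 library was left out, with log2 values of 0.91 to 1.14 and 1.12 to 1.35.

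In epithelia, where Aldh1a1 started from a higher level, the differences were smaller on the log2 scale. WT epithelia measured 1528, 1289, 1347 and 1309 CPM, LEGSKO epithelia 1565, 1773, 1688 and 1638 CPM, and LEGSKO+BSO epithelia 1688, 1393, 1609 and 1545 CPM. The LEGSKO libraries lay just above the WT libraries without overlap, which 5.59% of genes did in this direction, and the LEGSKO+BSO libraries overlapped with both. By edgeR neither difference was called (log2 0.27 ± 0.08 SE, adjusted p = 0.146, and log2 0.19 ± 0.08 SE, adjusted p = 0.296). DESeq2 called the first (log2 0.27, adjusted p = 0.0228) and not the second (adjusted p = 0.147). From highest to lowest mean, the order of the groups was LEGSKO, LEGSKO+BSO and WT epithelia, then LEGSKO+BSO, LEGSKO and WT fibers. By edgeR no difference between neighbours was called within epithelia, nor between the deficient fiber groups.

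The response of Aldh1a1 was larger in fibers than in epithelia for LEGSKO+BSO, where the difference in response was log2 1.03 ± 0.18 SE (interaction term, adjusted p = 0.0111). Aldh1a1 was the 1 member called there by edgeR, beside 0.276% of all genes tested, and it was called in each of the 16 fits with 1 library left out (log2 0.92 to 1.18). For LEGSKO alone the difference in response was log2 0.74 ± 0.18 SE and was not called (adjusted p = 0.116), where 0.103% of genes were. Without WT fiber replicate 1 it was log2 0.89 with an adjusted p of 0.0173. In that comparison edgeR called 0 members, with 3 at an unadjusted p below 0.05, and DESeq2 called 1, Aldh1a1. The interaction fit treated the libraries of both tissues as independent, although the labels do not say whether they share animals.

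Aldh1a7 measured 33.7, 22.8, 19.8 and 17.1 CPM in WT fibers. It measured 38.1, 51.1, 52.9 and 37.0 CPM in LEGSKO fibers and 46.1, 44.7, 40.7 and 43.6 CPM in LEGSKO+BSO fibers. No deficient library overlapped with WT, and the closest WT library was replicate 1. The change was log2 0.95 ± 0.17 SE in LEGSKO (adjusted p = 0.0103) and log2 0.92 ± 0.17 SE in LEGSKO+BSO fibers (adjusted p = 0.00659). The first call was lost without LEGSKO fiber replicate 3 (log2 0.86, adjusted p = 0.0542). Without WT fiber replicate 1 the changes were log2 1.16 and 1.14.

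In epithelia, Aldh1a7 measured 182, 124, 138 and 120 CPM in WT, 177, 198, 186 and 198 CPM in LEGSKO, and 171, 157, 181 and 168 CPM in LEGSKO+BSO. WT replicate 1 lay within the range of the deficient libraries, and the other 3 WT libraries lay below all of them. By edgeR neither difference was called (log2 0.41 ± 0.11 SE, adjusted p = 0.0976, and log2 0.27 ± 0.11 SE, adjusted p = 0.273). DESeq2 called the first (log2 0.41, adjusted p = 0.0117) and not the second (adjusted p = 0.167). Without WT epithelial replicate 1 edgeR called both, at log2 0.56 (adjusted p = 0.00243) and log2 0.43 (adjusted p = 0.0144). The responses of Aldh1a7 in fibers and epithelia were called different by neither tool (log2 0.53 ± 0.21 SE, adjusted p = 0.436, for LEGSKO, and log2 0.66 ± 0.21 SE, adjusted p = 0.166, for LEGSKO+BSO). Without WT fiber replicate 1 edgeR called the second, at log2 0.89 with an adjusted p of 0.0290, and not the first, at log2 0.76 with an adjusted p of 0.0759.

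Because Aldh1a1 and Aldh1a7 are close copies, their counts may share reads. Of all 36-base windows of the Aldh1a7 transcript, 11.4% also occurred unchanged in the Aldh1a1 transcript, as did 7.5% of 50-base windows, 2.5% of 75-base windows and 0.1% of 100-base windows. The read length is not given in the sources used here, and how reads with several matches were counted is not either. Aldh1a7 counts were 10.2% ± 1.199 of Aldh1a1 counts in WT epithelia, 11.4% ± 0.481 in LEGSKO and 10.9% ± 0.534 in LEGSKO+BSO epithelia (SD, n = 4 each). In fibers the ratio was 13.1% ± 1.55, 12.5% ± 0.626 and 10.7% ± 0.966. The ranges of neighbouring groups overlapped. The values of Aldh1a7 are uncertain as a measure apart from Aldh1a1. With the counts of both genes summed, the change in fibers was log2 1.01 (adjusted p = 0.00228) for LEGSKO and log2 1.19 (adjusted p = 0.000436) for LEGSKO+BSO.

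Aldh1a3 (Entrez 56847, chr7:66390892-66427477), the retinaldehyde dehydrogenase known from the ventral retina of the embryo, followed the opposite course. WT fibers measured 34.4, 13.7, 14.6 and 10.97 CPM, LEGSKO fibers 6.65, 5.05, 3.57 and 7.19 CPM, and LEGSKO+BSO fibers 5.51, 3.34, 4.01 and 6.80 CPM. All 8 deficient libraries were below all 4 WT libraries, and WT replicate 1 was the highest of all. The change was log2 -1.69 ± 0.34 SE in LEGSKO (adjusted p = 0.0223) and log2 -1.89 ± 0.33 SE in LEGSKO+BSO fibers (adjusted p = 0.00535). Groups not overlapping, with the lower level in the deficient lens, were found for 4% and 6.76% of genes in these comparisons. Without WT fiber replicate 1 the changes were log2 -1.23 (adjusted p = 0.00508) and log2 -1.42 (adjusted p = 0.00104). The LEGSKO call was lost without LEGSKO fiber replicate 2 (adjusted p = 0.0797) or 3 (adjusted p = 0.100). LEGSKO+BSO and LEGSKO fibers differed by log2 -0.19 ± 0.35 SE (adjusted p = 0.883). Since Aldh1a3 is more abundant in fibers, the 11 fiber markers are given beside it. They summed to 239900 to 470600 CPM in WT, 233600 to 302900 in LEGSKO and 224400 to 253400 in LEGSKO+BSO fibers, with no gene at 0. None was called, and their log2 values ran from -0.42 to -0.03 for LEGSKO (median -0.21) and from -0.58 to -0.09 for LEGSKO+BSO (median -0.32). Mip, the main membrane protein of fibers, did not overlap with WT in either (log2 -0.34 and -0.32, adjusted p = 0.265 and 0.213). Their part in the difference of Aldh1a3 was not tested.

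Epithelia held little Aldh1a3. The means were 1.38 ± 0.529 CPM for WT, 1.18 ± 0.514 for LEGSKO and 1.39 ± 0.848 for LEGSKO+BSO epithelia (SD, n = 4 each), and the groups overlapped. At this level the differences of log2 -0.24 ± 0.42 SE (adjusted p = 0.835) and 0.00 ± 0.42 SE (adjusted p = 0.999) were within the spread. The difference in response between fibers and epithelia was log2 -1.48 ± 0.57 SE for LEGSKO (adjusted p = 0.411) and log2 -1.88 ± 0.56 SE for LEGSKO+BSO (adjusted p = 0.125) and was called in neither by edgeR. DESeq2 called the second, at log2 -1.91 (adjusted p = 0.0352). Without WT fiber replicate 1 the values were log2 -0.98 and -1.38, and edgeR called neither.

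The make-up of the Aldh1a family was computed from levels per kilobase, as a description with no test. Aldh1a3 made up 8.29%, 4.41%, 4.87% and 4.70% of the family in the WT fiber libraries. Its share was 0.982% ± 0.423 in LEGSKO and 0.719% ± 0.191 in LEGSKO+BSO fibers (SD, n = 4 each). Aldh1a1 made up 82.2% ± 2.73 of it in WT fibers, 86.7% ± 0.491 with LEGSKO and 88.4% ± 0.784 with LEGSKO+BSO, so its share lay nearer that of epithelia, where it was 88.5% to 89.5% on average. Aldh1a7 took 10.4% to 12.4% on average in the 6 groups.

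**Figure D2:**
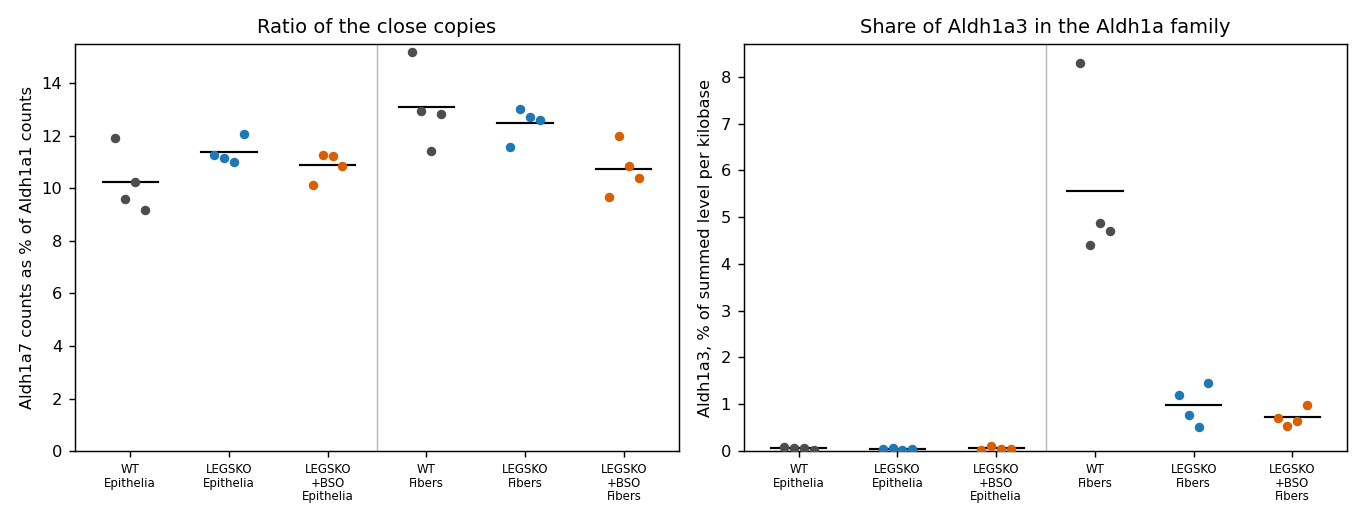
Left, Aldh1a7 counts as a percentage of Aldh1a1 counts, and right, the share of Aldh1a3 in the summed level per kilobase of the 4 Aldh1a genes, by group, with 1 point per library and a line at the mean of 4. The ratio of the copies lies between 9.19% and 15.2% in all 24 libraries, and the Aldh1a3 share is 4.41% to 8.29% in WT fibers and below 1.5% in every other library.

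Aldh1a2 (Entrez 19378, chr9:71215789-71296243), the main retinaldehyde dehydrogenase of the early embryo, did not pass the filter. It had 0 to 11 counts per library, 0 in all 4 LEGSKO epithelial libraries, and 0 to 6 in fibers. A count of 0 allows up to 3 counts, which is 0.101 CPM in the LEGSKO epithelial library with the smallest scaled size. These limits cover counting error only.

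Rdh10 (Entrez 98711, chr1:16105882-16132550) makes the retinaldehyde that the Aldh1a enzymes use. It measured 29.2 ± 2.19 CPM in WT epithelia, 32.1 ± 2.54 in LEGSKO epithelia and 30.6 ± 2.30 after BSO (SD, n = 4 each). In fibers it measured 5.83 ± 1.57, 6.90 ± 1.08 and 6.94 ± 1.22 CPM. Its groups overlapped in each of the 6 condition comparisons, and none was called. The differences from WT were log2 0.12 ± 0.08 SE and 0.07 ± 0.08 SE in epithelia (adjusted p = 0.515 and 0.733), and log2 0.23 ± 0.19 SE and 0.24 ± 0.19 SE in fibers (adjusted p = 0.620 and 0.499). With any 1 library left out, the fiber values ran from log2 0.12 to 0.43 and from 0.14 to 0.44, and none was called. The lowest of each range was without WT fiber replicate 1.

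Crabp2 (Entrez 12904, chr3:87948693-87953372) measured 21.4, 1.44, 0.776 and 0.351 CPM in the WT fiber libraries, from 261, 31, 14 and 7 counts. It measured 0.455, 0.703, 0.761 and 0.255 CPM in LEGSKO fibers and 0.507, 0.796, 0.592 and 1.09 CPM in LEGSKO+BSO fibers. Apart from WT replicate 1, the 3 fiber groups overlapped. The fitted differences were log2 -3.39 ± 1.03 SE (adjusted p = 0.123) and log2 -2.94 ± 0.94 SE (adjusted p = 0.0842), and without WT replicate 1 they were log2 -0.67 and -0.21. The second was called without the filter on low counts (adjusted p = 0.0396) and without WT fiber replicate 4 (adjusted p = 0.0379), both fits that keep WT replicate 1. In epithelia Crabp2 had 3 to 23 counts per library and was not called.

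Crabp1 (Entrez 12903, chr9:54764748-54773110) had 0 counts in all 12 fiber libraries, which allows up to 0.245 CPM in the WT fiber library with the smallest scaled size. In epithelia it had 0 to 22 counts, the most in LEGSKO+BSO replicate 2, and it did not pass the filter.

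**Figure D3:**
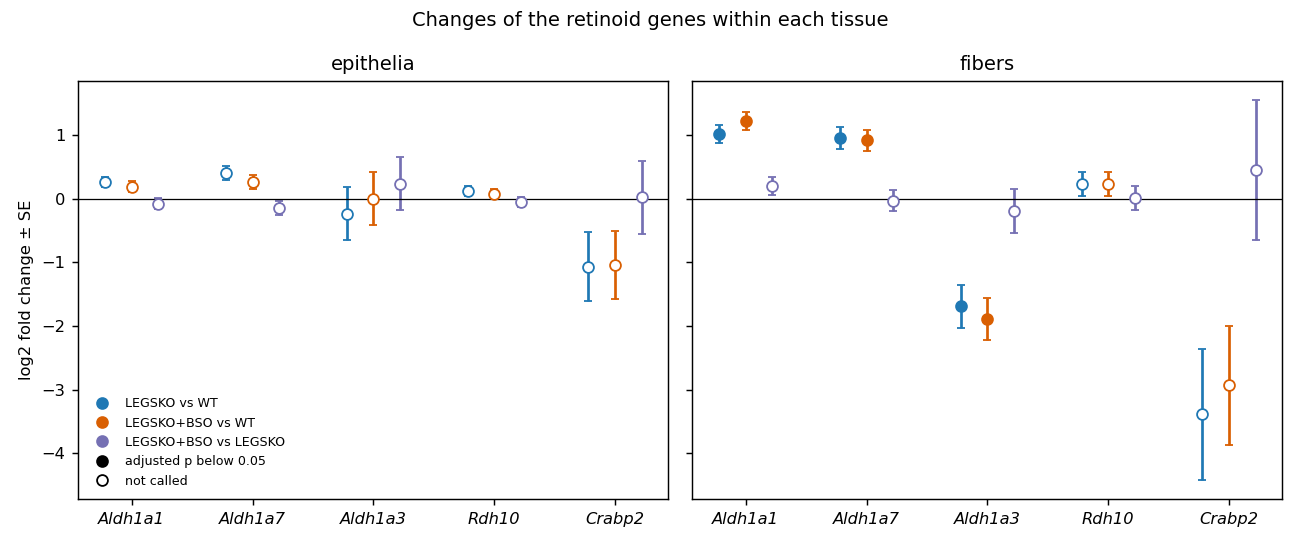
Log2 fold change ± SE of the 5 tested members in the 3 comparisons within epithelia (left) and within fibers (right), with filled points where the adjusted p of edgeR was below 0.05. Filled points are found in fibers against WT only, at 1.02 and 1.22 for Aldh1a1, 0.95 and 0.92 for Aldh1a7, and -1.69 and -1.89 for Aldh1a3.

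In the 3 comparisons within epithelia edgeR called 0 of 5 members. At an unadjusted p below 0.05 there were 2 in LEGSKO against WT, 2 in LEGSKO+BSO against WT and 0 in LEGSKO+BSO against LEGSKO. DESeq2 called 2 in the first, Aldh1a1 (adjusted p = 0.0228) and Aldh1a7 (adjusted p = 0.0117), and 0 in the others. The share of all genes called by edgeR was 0.842%, 1.17% and 0.722%. In LEGSKO+BSO against LEGSKO fibers, edgeR and DESeq2 called 0 members, with 0 at an unadjusted p below 0.05, and edgeR called 0.0298% of all genes.

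Since Aldh1a1, Aldh1a7 and Rdh10 were more abundant in epithelia, markers of the epithelium were read in the fiber libraries. The list of 9 lens epithelium genes summed to 18080 to 50990 CPM for WT, 18500 to 23690 for LEGSKO and 16830 to 20480 for LEGSKO+BSO fibers, with no gene at 0. WT epithelia summed to 16600 to 21260 CPM, so the sum does not separate the tissues. Most of it was Cryab, which with Sfrp1 was higher in WT fibers than in WT epithelia (log2 1.06 and 1.60), while the other 7 were lower in fibers. None of the 9 was called in LEGSKO against WT fibers (median log2 -0.02), and 1 was lower in LEGSKO+BSO, Sparc (log2 -0.73, adjusted p = 0.00965; median log2 -0.07). Foxe3, the transcription factor that defines the lens epithelium, measured 4.79 ± 3.32, 6.91 ± 1.86 and 10.4 ± 6.74 CPM in WT, LEGSKO and LEGSKO+BSO fibers, against 165 ± 33.5 in WT epithelia. The cadherin Cdh1 measured 18.5 ± 7.83, 23.7 ± 1.76 and 16.2 ± 6.59 CPM against 353 ± 51.2, and the glutamine transporter Slc38a3 2.52 ± 0.986, 2.49 ± 1.47 and 2.41 ± 2.02 CPM against 94.6 ± 5.70 (SD, n = 4 each). The matrix protein Npnt, lower in WT fibers than in WT epithelia (log2 -4.17), measured 24.3, 22.2, 19.8 and 15.9 CPM in WT, 32.7, 27.9, 30.6 and 30.2 in LEGSKO and 27.8, 23.8, 22.3 and 38.7 CPM in LEGSKO+BSO fibers. Npnt did not overlap between LEGSKO and WT fibers and was called in neither comparison (log2 0.57 and 0.46, adjusted p = 0.0955 and 0.105). Pax6 was likewise above WT without overlap in LEGSKO fibers (log2 0.24, adjusted p = 0.151).

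Some markers of other cell types also differed between the fiber groups. The list of 8 genes of stroma and mesenchyme summed to 866 to 927 CPM in WT, 1074 to 1220 in LEGSKO and 1032 to 1236 in LEGSKO+BSO fibers. Most of this was Acta2, the smooth muscle actin, which was 1 of 2 tested and rose by log2 0.39 (adjusted p = 0.0345) and log2 0.38 (adjusted p = 0.0192), while the stromal markers Dcn, Lum and Kera were at 0 in all 3 groups. The list of 8 immune cell genes summed to 1.17 to 1.81 CPM in WT, 1.08 to 1.78 in LEGSKO and 5.09 to 6.86 in LEGSKO+BSO fibers, with Cd74 at 0 in WT and LEGSKO and C1qa at 0 in WT. Of its 2 tested genes Lyz2, lysozyme of macrophages, rose in LEGSKO+BSO (log2 2.75, adjusted p = 6.937e-05). Of 5 retina genes tested, 1 was higher in LEGSKO fibers, Pde6b (log2 1.18, adjusted p = 0.0392). The list of 12 summed to 21.4 to 31.9 CPM in WT, 26.4 to 74.8 in LEGSKO and 25.0 to 31.8 in LEGSKO+BSO fibers. The sum of 74.8 CPM was that of LEGSKO replicate 1, and the other LEGSKO fiber libraries had 26.4 to 33.4 CPM. The part of these 4 lists in the differences of Aldh1a1 and Aldh1a7 was not tested.

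In epithelia, markers of the cornea and conjunctiva moved with the groups. The list of 7 summed to 561 to 1424 CPM for WT, 1541 to 2198 for LEGSKO and 1990 to 2744 for LEGSKO+BSO epithelia, with no gene at 0. Most of this sum was Aldh3a1, and the cornea keratin Krt12 measured 0.0404 ± 0.0425, 0.0482 ± 0.0411 and 0.154 ± 0.259 CPM. Of the list, 3 genes were tested, and 2 were higher in LEGSKO and 3 in LEGSKO+BSO against WT. The stroma and mesenchyme list summed to 287 to 367, 405 to 431 and 371 to 399.6 CPM in the same order of groups, and the collagen gene Col1a2 was 1 of 4 tested, higher in both (log2 2.54 and 2.20, adjusted p = 0.0237 and 0.0430). All 11 lens fiber markers were lower than in WT, and none was called. Their log2 values ran from -0.97 to -0.05 for LEGSKO (median -0.51) and from -0.77 to -0.16 for LEGSKO+BSO (median -0.33). Mip did not overlap with WT in either (log2 -0.95 and -0.52, adjusted p = 0.0883 and 0.343). Of 9 lens epithelium genes, Sfrp1 was called lower in LEGSKO (log2 -0.42, adjusted p = 0.0220) and Foxe3 higher in LEGSKO+BSO (log2 0.98, adjusted p = 0.00765). The part of these lists in the epithelial values of Aldh1a1 and Aldh1a7 was not tested.

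The other genes of retinoid metabolism and of the aldehyde dehydrogenase family were read from 6 lists with 75 genes that are no members, of which 53 were tested in epithelia and 44 in fibers. In LEGSKO against WT fibers 0 were higher and 1 was lower, beside 1.64% called of all genes, with a median of log2 -0.05 against -0.01 over all genes. That count was 3 without WT fiber replicate 1 and 0 without any 1 of the other 7 libraries. In LEGSKO+BSO against WT fibers 1 was higher and 2 were lower, beside 5.52% called of all genes, with a median of log2 -0.01 against -0.01. That count was 4 without WT fiber replicate 1 and 1 without LEGSKO+BSO fiber replicate 1 or 4. In epithelia 0 of 53 were called in LEGSKO and 1 of 53, higher, in LEGSKO+BSO, beside 0.842% and 1.17% called of all genes. DESeq2 called 3 and 2 there, and it also called more of all genes than edgeR in both comparisons.

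Among the nuclear receptors of retinoic acid, 1 of 7 was called. Rxra, the common partner of these receptors, measured 52.9, 52.3, 52.5 and 56.5 CPM in WT fibers and 71.8, 70.6, 74.8 and 71.7 CPM in LEGSKO+BSO fibers. These groups did not overlap, and Rxra rose by log2 0.43 ± 0.06 SE (adjusted p = 0.000913). LEGSKO fibers lay between them at 60.3 ± 2.20 CPM and were not called (log2 0.17 ± 0.06 SE, adjusted p = 0.168).

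Of the 2 tested enzymes of retinoic acid breakdown, Cyp26a1 was called. It is induced by retinoic acid in many tissues. Cyp26a1 measured 24.4, 50.6, 48.1 and 45.6 CPM in WT fibers and 22.9, 31.6, 24.9 and 25.9 CPM in LEGSKO+BSO fibers, and WT replicate 1 lay within the range of the deficient libraries. It fell by 0.69 on the log2 scale (SE 0.17, adjusted p = 0.0341), and without WT fiber replicate 1 by 0.87 (adjusted p = 9.488e-05). The call was lost without WT fiber replicate 2, 3 or 4 or without LEGSKO+BSO fiber replicate 1, 3 or 4 (adjusted p = 0.0710 to 0.108). In epithelia Cyp26a1 was not called against WT. The change there was log2 -0.19 ± 0.12 SE in LEGSKO (adjusted p = 0.513) and log2 0.25 ± 0.12 SE in LEGSKO+BSO (adjusted p = 0.356). Of the 12 tested genes listed as retinoic acid targets, Crabp2 and Cyp26a1 included, Cyp26a1 was the 1 called in LEGSKO+BSO fibers, and 0 were called in LEGSKO fibers. Their medians were log2 -0.35 and -0.28, where the median of all genes was -0.01 in both. The medians were not tested, and they were not computed without WT fiber replicate 1.

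None of the 12 tested oxidoreductases of retinol and retinaldehyde and none of the 3 tested genes of retinol uptake, binding and storage was called against WT in fibers. In epithelia it was 0 of 14 and 0 of 9. Among 13 other aldehyde dehydrogenases tested in fibers, the mitochondrial enzyme Aldh1b1 fell by 0.62 on the log2 scale (SE 0.14, adjusted p = 0.0181) in LEGSKO+BSO, from 5.68 ± 0.445 to 3.70 ± 0.390 CPM. That call was lost without LEGSKO+BSO fiber replicate 1 (adjusted p = 0.0686) or 4 (adjusted p = 0.0542). Aldh18a1, an enzyme of proline synthesis, fell by 0.36 on the log2 scale (SE 0.09, adjusted p = 0.0496) in LEGSKO fibers, and 7 of the 8 fits with 1 library left out did not call it, the exception being that without WT fiber replicate 1 (log2 -0.29, adjusted p = 0.0423). In LEGSKO+BSO epithelia Aldh3a1, the corneal aldehyde dehydrogenase, measured 2058, 1859, 2018 and 2633 CPM against 492, 978, 1360 and 1300 CPM in WT. It rose by log2 1.06 ± 0.23 SE (adjusted p = 0.0436), and the call was lost without WT epithelial replicate 2 or LEGSKO+BSO epithelial replicate 1, 3 or 4 (adjusted p = 0.100 to 0.120).

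**Figure D4:**
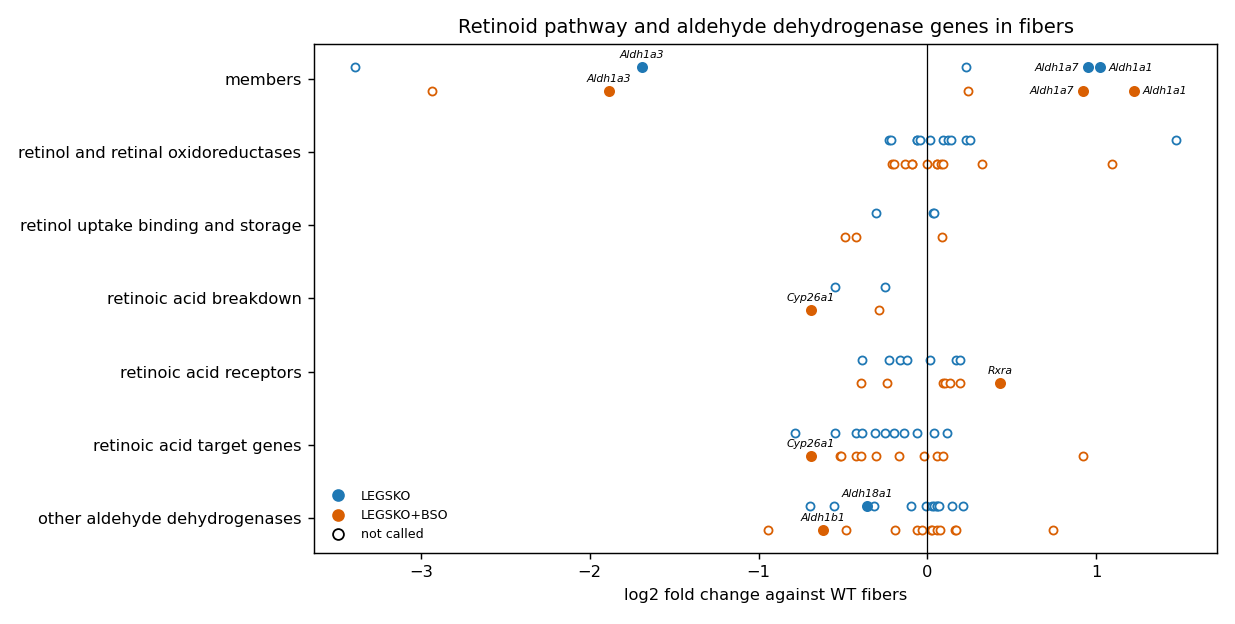
Log2 fold change against WT fibers of the tested members and of the other tested genes of each list, for LEGSKO and LEGSKO+BSO, with filled, named points where the adjusted p was below 0.05. Cyp26a1 stands in 2 lists, and members are drawn in the top row only. The called genes that are no members run from -0.69 to 0.43. The members were chosen with their changes known, so their row is not set against the other rows.

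Between the WT tissues, 46 of 55 tested genes of the 6 lists were called, 21 higher and 25 lower in fibers. In this comparison 76.4% of all genes tested were called. Fabp5, a carrier of fatty acids and retinoic acid, was higher in fibers by log2 5.29. The retinol receptor Stra6 (log2 -4.82) and the retinol esterifying enzyme Dgat1 (log2 -1.08) were lower. The retinaldehyde reductase Dhrs3 (log2 -1.21), Rdh12 (log2 -5.26) and Rdh13 (log2 -1.04) were lower in fibers, as was Rdh10, whereas the carotenoid cleaving enzyme Bco2 was higher (log2 2.15). Rxra, Rxrb and Rxrg were higher by log2 1.55, 1.67 and 2.60, and Rara was lower (log2 -1.64). Aldh2 (log2 -1.41), Aldh3a2 (log2 -1.002) and Aldh3b1 (log2 -2.62) were lower in fibers, as were Aldh1a1 and Aldh1a7, whereas Aldh1b1 was higher (log2 2.82), as was Aldh1a3. The homeobox gene Meis1 was lower (log2 -1.49). Each adjusted p of these genes was below 0.05 by edgeR. Markers of other eye tissues differed in the same comparison. The list of 12 retina genes summed to 185 to 400.1 CPM in WT epithelia, with none at 0, and to 21.4 to 31.9 CPM in WT fibers, with Nrl at 0. The list of 11 genes of the iris and ciliary body summed to 178 to 220 CPM and to 43.8 to 56.6 CPM, with Otx2 at 0 in fibers. Their part in the lower fiber levels of Stra6, Rdh12 and Rdh10 was not tested.

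Genes whose level ran most like a member's were sought over the 12 libraries of the tissue where the member is higher, with Pearson's r on log2 CPM. These values describe libraries that share their groups, depth and scaling. The search covered tested genes with an average log2 CPM of at least 1. It left out the members and genes whose symbol is a number or clone name. Aldh1a1 ran most like Dpysl3 (r = 0.97) and Cenpq (r = 0.95) in epithelia, and its r with Aldh1a7 was 0.92. Aldh1a7 ran most like Lipo3 (r = 0.96) and Dpysl3 (r = 0.94). Dpysl3, which encodes a cytoskeletal regulator of neurons, measured 23.3 ± 11.02 CPM for WT, 52.0 ± 8.64 for LEGSKO and 39.4 ± 9.29 for LEGSKO+BSO epithelia. Aldh1a3 ran most like Mdm2 (r = 0.94) and Elovl4 (r = 0.94) in fibers, and its r with Aldh1a1 was -0.73. Mdm2, which encodes the ligase that controls p53, measured 163 ± 17.1 CPM for WT, 123 ± 5.37 for LEGSKO and 123 ± 10.1 for LEGSKO+BSO fibers. Crabp2 ran most like Cpt1a (r = 0.94) and Atic (r = 0.93) in fibers, where WT replicate 1 sets its range, and Rdh10 most like Acot11 (r = 0.83) and Colq (r = 0.83) in epithelia.

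The neighbours of the called members on the chromosome were read after those calls had been seen. Within 1 megabase of Aldh1a1, 4 genes other than members were tested in fibers (Anxa1, Zfand5, Gda and 1110059E24Rik). Of these, 0 were called in LEGSKO or LEGSKO+BSO against WT, with medians of log2 0.01 and -0.13. The member Aldh1a7 also lies in this window and was called higher in both comparisons. Within 1 megabase of Aldh1a3, 14 genes were tested and 0 were called, with medians of log2 -0.04 and -0.07.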

How the data were processed

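RNA was sequenced from 24 mouse lens libraries. The authors deposited a table of raw counts for 24415 genes, named by Entrez identifier. The labels name total RNA and standard Illumina libraries. The submitters' processing notes name TopHat, DESeq, bcl2fastq and CASAVA 1.8 and the build GRCm38 (mm10), with no order. Which counter, annotation, read length and strand setting applied is not given in the sources used here. How reads of overlapping genes and of close copies were assigned is therefore not known. Of the identifiers, 24334 were matched to RefSeq symbols. The 81 others held 0.914% of counts and stayed in the tests.

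The main fits were made in R 4.3.3 with edgeR 4.0.16 and its quasi-likelihood F tests, two-sided, after TMM scaling and filterByExpr (minimum count 10, minimum total 15), with Benjamini-Hochberg adjustment over all genes tested and a threshold of 0.05. Each tissue was fitted on its 12 libraries in 3 groups (15089 genes in epithelia, 13436 in fibers). Interactions and the comparison of tissues used all 24 libraries in 6 groups (15560 genes) and treated them as independent. The biological coefficient of variation was 14.2%, 12.8% and 13.7%. CPM were scaled over all 24 libraries and are means with SD, while fold changes are fitted within a tissue. The fit was tested on simulated data. No libraries of a group were duplicates (chi-square per degree of freedom of 5.27 to 345). Levels per kilobase used the GENCODE vM21 transcript with the longest coding part, and sequences came from GENCODE vM21 and RefSeq. The check of same-numbered libraries gave correlations of their deviations from -0.27 to 0.27, so the numbers were not taken as pairs. Alternatives were DESeq2 1.42.0, RLE scaling, no filter, a replicate block, library sizes without crystallins, Aldh1a1 and Aldh1a7 summed, and each library left out.

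The members and lists were chosen with earlier results of these data known. Named were all members, the called genes of the pathway lists, up to 4 per list between tissues by adjusted p, and the 2 genes most correlated with each tested member. One gene that this rule names is not reported here.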

Additional observations from a re-analysis of the deposited data

Results flagged for a closer look

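Aldh1a3 in WT fibers was flagged because 1 library stood far from the other 3: replicate 1 measured 34.4 CPM, with a gap to its nearest neighbour of 0.843 of the group's range. Crabp2 in WT fibers was flagged for the same library, at 21.4 CPM (0.948 of the range). Aldh1a3 in LEGSKO+BSO epithelia was flagged for replicate 2, at 2.65 CPM (0.905 of the range), and Crabp1 in LEGSKO+BSO epithelia for the same replicate 2, at 0.749 CPM (0.913 of the range). Of 32 groups examined 4 were flagged in this way, and chance flags about 1 in 20.

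Aldh1a1 was flagged because its response to LEGSKO+BSO differed between the tissues: the change in fibers minus the change in epithelia was log2 1.03 (interaction term in edgeR, adjusted p = 0.0111).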

How the results depend on the processing

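Of 234 member values under other tools, scalings, filters or the replicate block, 227 kept their direction and their side of the threshold, 5 became calls and 2 changed sign. Of 440 with 1 library left out, 413 kept both, 4 lost and 5 gained a call, and 18 changed sign.

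DESeq2 called more genes than edgeR in LEGSKO against WT epithelia (446 against 127), LEGSKO+BSO against WT epithelia (567 against 177), LEGSKO+BSO against LEGSKO epithelia (678 against 109), the same comparisons in fibers (503 against 220, 1140 against 742 and 72 against 4) and the differences in response for LEGSKO (78 against 16) and LEGSKO+BSO (302 against 43). Of the members, DESeq2 called 2 in LEGSKO against WT epithelia (edgeR 0), 1 in the LEGSKO difference in response (edgeR 0) and 2 in that of LEGSKO+BSO (edgeR 1). Without the filter, 14 genes were called in LEGSKO+BSO against LEGSKO fibers.

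The labels do not say whether libraries with the same number share an animal, and not every correlation passed 0.1, so the numbers were not taken as pairs. Between conditions of a tissue a library correlated best with its own number in 7 of 24 comparisons, and between the tissues of a condition in 8 of 12 (correlations of -0.05 to 0.19), a hint from the data and not from the design. With the replicate block, the genes called were 46 in LEGSKO+BSO against LEGSKO epithelia, 143 in LEGSKO against WT fibers, 2 in LEGSKO+BSO against LEGSKO fibers and 10 in the LEGSKO difference in response. Under the block, Aldh1a3 in LEGSKO+BSO against WT epithelia turned to log2 -0.10 and Rdh10 in LEGSKO+BSO against LEGSKO fibers to log2 -0.007. No member's call changed, while Cyp26a1 (adjusted p = 0.0557) and Aldh18a1 (adjusted p = 0.105) were no longer called in fibers by edgeR. The block gave each replicate number the same shift in every group of a fit. A pairing of epithelia with fibers by number within each condition was not fitted, so its effect on the calls is not known.

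With 1 library left out, the genes called ranged over 40 to 183, 41 to 324 and 0 to 442 in the epithelial comparisons (in the order above), 61 to 591, 285 to 1075 and 1 to 7 in fibers, 4 to 46 and 12 to 94 for the differences in response, and 11631 to 11893 between tissues. The members called ranged over 0 to 1, 0 to 1 and 0 to 0, then 1 to 3, 3 to 4 and 0 to 0, then 0 to 1 and 1 to 2, and 4 to 5. Signs changed within these log2 ranges: Aldh1a3 in epithelia, -0.50 to 0.22 (LEGSKO+BSO against WT) and -0.26 to 0.55 (against LEGSKO), Crabp2 in LEGSKO+BSO against LEGSKO epithelia, -0.24 to 0.68, Aldh1a7 and Rdh10 in LEGSKO+BSO against LEGSKO fibers, -0.105 to 0.061 and -0.059 to 0.121, and the Crabp2 differences in response, -2.76 to 0.42 and -2.31 to 0.86. The cause was not tested. Depth limits Aldh1a2 and Crabp1, for which differences were not detectable, and Crabp2 and Aldh1a3 in epithelia.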
